A study of Mus musculus with 10 samples.

Results

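The regions described here are 2182 stretches of open chromatin that were called as peaks in all 4 libraries of days 2 and 3 of a differentiation course and in none of the 6 libraries of days 6 and 7. They are 2182 of 246799 regions in all, or 0.884%, and are called members hereafter. They were chosen by the authors' own peak calls, so their fall between day 3 and day 6 is a description of how they were selected and carries no test. The study profiled wild-type ES-Bruce4 mouse embryonic stem cells, a C57BL/6 line, on the way to neuromesodermal progenitors by ATAC-seq, in which a transposase cuts accessible DNA and the cuts are read by sequencing. Of the 50409 regions called in all 4 early libraries, 4.33% were members and 64.1% were called in all 10 libraries.

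The 5 groups held 2 libraries each, made from 50000 cells apiece. Every group was grown from day 0 in serum-free N2B27 medium with bFgf at 10 ng/ml, after LIF and the fibroblast feeder layer were removed. CHIR99021, an inhibitor of GSK3 that activates Wnt signalling, was given at 5 µM on day 2. The day 2 group is therefore the one collected at that step, and the groups of day 3, day 6 and day 7 come after it. The cells were split on day 3. The last group, day 7 with Gdf11, received human Gdf11, a ligand of the TGF-beta family, at 50 ng/ml on day 6 for 24 h. The cells were depleted of feeders once before the course. It is not stated in the labels if paired libraries stem from independent cultures, so p-values measure only the spread between these libraries, which may be technical. All groups come from 1 cell line.

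Embryonic stem cells that leave the naive state pass through a state like the epiblast, in which Oct4, Sox2 and Nodal signalling keep pluripotency while Fgf signalling prepares the cells for lineage choice. Wnt activation then moves such cells to a caudal identity, where Cdx factors, T and Fgf8 mark the progenitors of spinal cord and paraxial mesoderm. Regions that open and close far from promoters during such a transition are often enhancers, the elements at which transcription factors act on genes. A position near a gene does not show that the region acts on that gene, and accessibility is not expression, so the labelled cell stages were not checked against marker transcripts.

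The members that reach promoters can be shown with their sequence. In all, 91 members overlapped the 250 bases before the start site of 93 genes, of which 69 are protein-coding. The sequences that follow are the bases of a promoter window that lie inside the member, for the 6 protein-coding genes with the highest early level, and for Sox15 and Dnmt3l, which were chosen after values were seen. They are from RefSeq, build GRCm38.p6 (mm10), each 5′ to 3′ on the strand of its gene. Capitals mark matches on either strand to 3 short words, the E-box CAGGTG read by ZEB and SNAI repressors among others, the ZIC word CCTGCTG and the KLF word CCCCACCC. A ZIC word and an E-box word can share bases, and so can neighbouring copies of the KLF word.
Cldn6 (chr17:23679198-23679364, + strand): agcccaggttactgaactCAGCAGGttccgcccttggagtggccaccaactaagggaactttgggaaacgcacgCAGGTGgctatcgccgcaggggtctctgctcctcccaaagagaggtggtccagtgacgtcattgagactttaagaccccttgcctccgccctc
Crb3 (chr17:57061981-57062230, + strand): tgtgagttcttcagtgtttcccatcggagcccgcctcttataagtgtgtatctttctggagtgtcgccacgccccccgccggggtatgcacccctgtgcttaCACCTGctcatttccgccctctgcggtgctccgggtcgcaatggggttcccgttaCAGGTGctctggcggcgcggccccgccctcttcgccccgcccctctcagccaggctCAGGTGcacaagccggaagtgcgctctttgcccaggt
Galnt9 (chr5:110544105-110544354, + strand): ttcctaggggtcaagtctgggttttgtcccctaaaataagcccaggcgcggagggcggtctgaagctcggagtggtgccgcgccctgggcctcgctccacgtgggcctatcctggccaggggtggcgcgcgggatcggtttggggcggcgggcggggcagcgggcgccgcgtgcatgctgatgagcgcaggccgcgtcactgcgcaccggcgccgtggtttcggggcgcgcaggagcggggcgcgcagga
Eras (chrX:7928608-7928826, - strand): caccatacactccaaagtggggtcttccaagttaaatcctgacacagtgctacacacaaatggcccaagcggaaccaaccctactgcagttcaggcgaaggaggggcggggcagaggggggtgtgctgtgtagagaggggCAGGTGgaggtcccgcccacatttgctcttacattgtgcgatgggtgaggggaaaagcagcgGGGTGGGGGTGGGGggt
Tmem139 (chr6:42261839-42261969, + strand): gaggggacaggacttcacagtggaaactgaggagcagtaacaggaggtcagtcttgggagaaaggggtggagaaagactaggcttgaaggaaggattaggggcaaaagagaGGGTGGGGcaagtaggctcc
Foxa3 (chr7:19023540-19023789, - strand): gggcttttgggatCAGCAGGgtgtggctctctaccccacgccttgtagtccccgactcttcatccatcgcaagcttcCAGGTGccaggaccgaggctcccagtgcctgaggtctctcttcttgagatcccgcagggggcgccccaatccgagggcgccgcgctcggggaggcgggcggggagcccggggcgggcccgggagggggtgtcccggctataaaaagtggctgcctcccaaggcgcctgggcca
Sox15 (chr11:69654815-69655036, + strand): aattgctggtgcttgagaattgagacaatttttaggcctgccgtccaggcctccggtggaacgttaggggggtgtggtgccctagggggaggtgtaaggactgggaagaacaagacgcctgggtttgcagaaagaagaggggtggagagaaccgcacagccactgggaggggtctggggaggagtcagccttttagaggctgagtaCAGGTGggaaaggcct
Dnmt3l (chr10:78049792-78049841, + strand): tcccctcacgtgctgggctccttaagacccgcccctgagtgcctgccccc

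In these printed stretches the E-box word stood once before Cldn6, Eras, Foxa3 and Sox15, and 3 times before Crb3. Cldn6 encodes a claudin of the tight junctions of early epithelia, Crb3 a polarity protein of the apical membrane, and Eras a Ras family member expressed in embryonic stem cells. Among the 69 protein-coding promoter windows with a member, 25 (36.2%) held the E-box word, against 16.5% of the windows of all 17492 protein-coding genes in the promoter table and 14.5% of the 9636 windows with a region called in all 10 libraries. The ZIC word stood in 13 of the 69 (18.8%), against 8.17% and 7.71%. The KLF word stood in 12 (17.4%), against 9.84% and 11%. Of the 17 words searched, these 3 stood furthest above the share over all protein-coding genes, so their excess is that of the top of a list. Other words were near that share, such as SMAD CAGACA with 17.4% against 15.2% and CDX TTTATNG with 10.1% against 9.33%. These are shares of whole windows and were not tested. The printed stretches hold only the bases inside the member, whereas a member can cover only part of its window. A word counted in these shares can therefore lie outside the member, and the shares do not give the words within members. Neither the octamer ATGCAAAT nor the forkhead word TGTTTAC was found in the 69 windows, and over all protein-coding genes they stood in 1.61% and 2.58%.

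**Figure D1:**
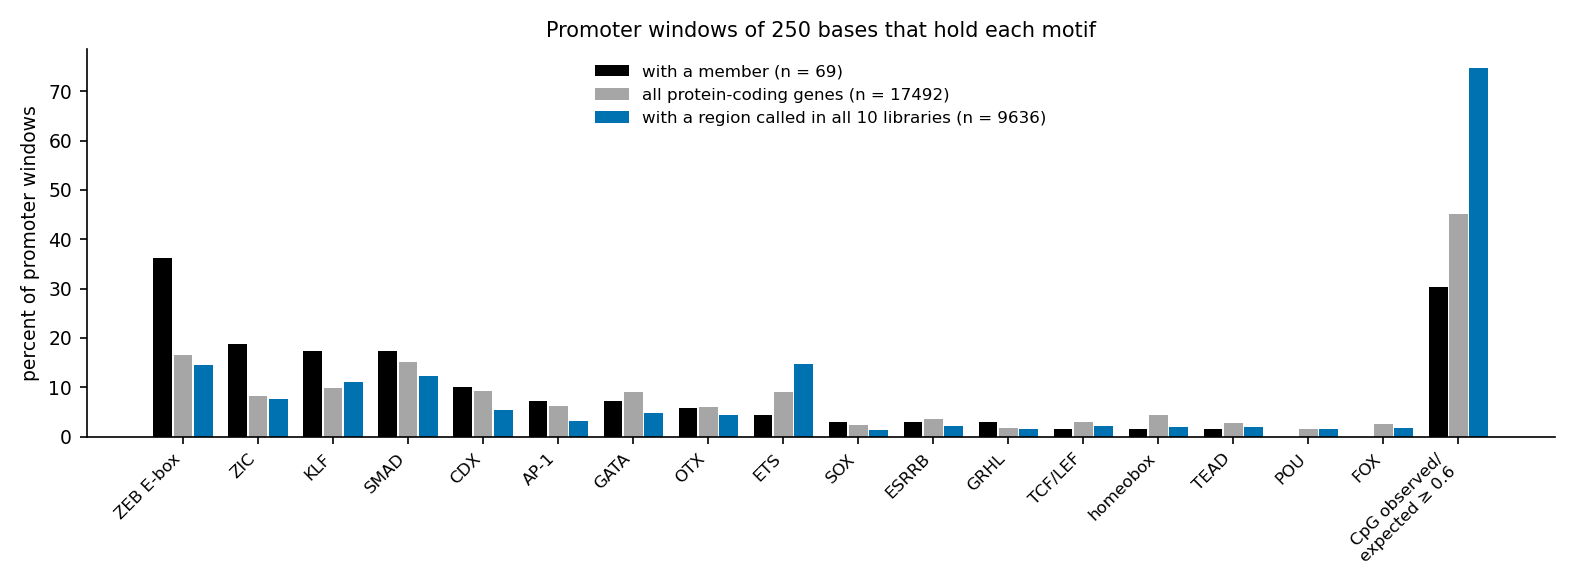
Percent of 250-base windows before the start site (vertical axis) that hold each of 17 motifs on either strand, and, at the right, percent with observed over expected CpG of at least 0.6. Black bars are the 69 protein-coding promoters with a member, grey bars all 17492 and blue bars the 9636 with a region called in all 10 libraries. The E-box bar is 36.2% for promoters with a member and 16.5% over all, and the CpG bar is 30.4% against 45.2% and 74.8%.

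The base composition of these windows can be set beside that of promoters open throughout. Median GC content was 61.2% in both. CpG, the dinucleotide that is dense in CpG islands, reached an observed over expected ratio of at least 0.6 in 30.4% of promoters with a member, in 45.2% of all protein-coding promoters and in 74.8% of those with a region called in all 10 libraries. ETS sites spelled CCGGAAG, common in housekeeping promoters, stood in 4.35%, 9.13% and 14.8%.

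Most members lay away from promoters. On the chromosomes of the promoter table, 125 members (5.91%) lay within 1 kb of a protein-coding start site, against 9.29% of all merged regions and 34.7% of regions called in all 10 libraries. Inside a gene lay 42.1% of members, against 50.9% of all regions. Within 50 kb of a gene lay 1573 members (72.1%), and these were assigned to 1428 nearest genes. The median member was 263 bp wide, wider than the 184 bp of all regions and narrower than the 453 bp of regions called in all 10 libraries. Another member lay within 10 kb of 85 members (3.9%). The same share was 4.64% in the 2307 regions called on day 3 only and 5.28% in the 2121 called from day 3 on, sets of like size. Within 10 kb of a miRNA hairpin 22 pairs of a member and a hairpin were found, the closest being Mir190a at 31 bp. The same member is paired with Mir194-2 and with Mir192. No share over all regions is set beside this count, so it does not mark the members.

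The authors' peak scores were lower at members than at regions open throughout. The deposited −log10 q of the peaks at members had a median of 11.4 and 8.1 in the D2 libraries and 7.26 and 6.14 in the D3 libraries. At regions called in all 10 libraries the same medians were 24.9, 20.4, 22.1 and 18.2. Over all regions with a peak in the library they were 9.33, 8.79, 8.19 and 8.21. The members thus stood above that median in D2 replicate 1 and below it in the other early libraries. The weakest of a member's 4 early peaks had a median of 4.73, and it reached 5 in 960 members and 10 in 101. Just inside the rule stood a member within Dok7, whose weakest early peak had a −log10 q of 1.99, with mean levels of 3.31 CPM (counts scaled to a fixed library total, with TMM factors) early and 1.2 late. Just outside stood a region 618 bp from Nkx2-1, called in all 4 early libraries and, at a −log10 q of 1.98, in 1 library of day 6, with 4.26 and 1.65 CPM. A further 2089 regions missed the rule by 1 late peak and 4783 by 1 early peak, 2438 of the latter because D3 replicate 2 had none. That library had the fewest counts, and without it the rule gives 4620 regions.

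Read counts show how far these regions were lost. The 10 libraries held between 7150334 and 12335735 counts, and members took 1.01% and 0.96% of the counts of the D2 libraries, 0.777% and 0.753% on day 3, 0.286% and 0.293% on day 6, 0.211% and 0.21% on day 7, and 0.328% and 0.26% on day 7 with Gdf11. Median CPM per member was 3.55 and 3.4 on day 2, 2.89 and 3.03 on day 3, 1.2 and 1.23 on day 6, 0.9 and 0.884 on day 7, and 1.27 and 1.08 with Gdf11. The early libraries stand above the late ones without overlap, as the rule requires of peaks though not of counts. Some counts remained late, at a level near that of other regions without a late peak. On day 7 the median CPM per kb was 3.28 and 3.32 at members. It was 2.91 and 2.83 at regions called on day 2 only, and 2.8 and 2.71 at those called on day 3 only. Whether the late counts exceed background was not tested. In bulk libraries, fewer cells with the region open and less opening per cell cannot be told apart.

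**Figure D2:**
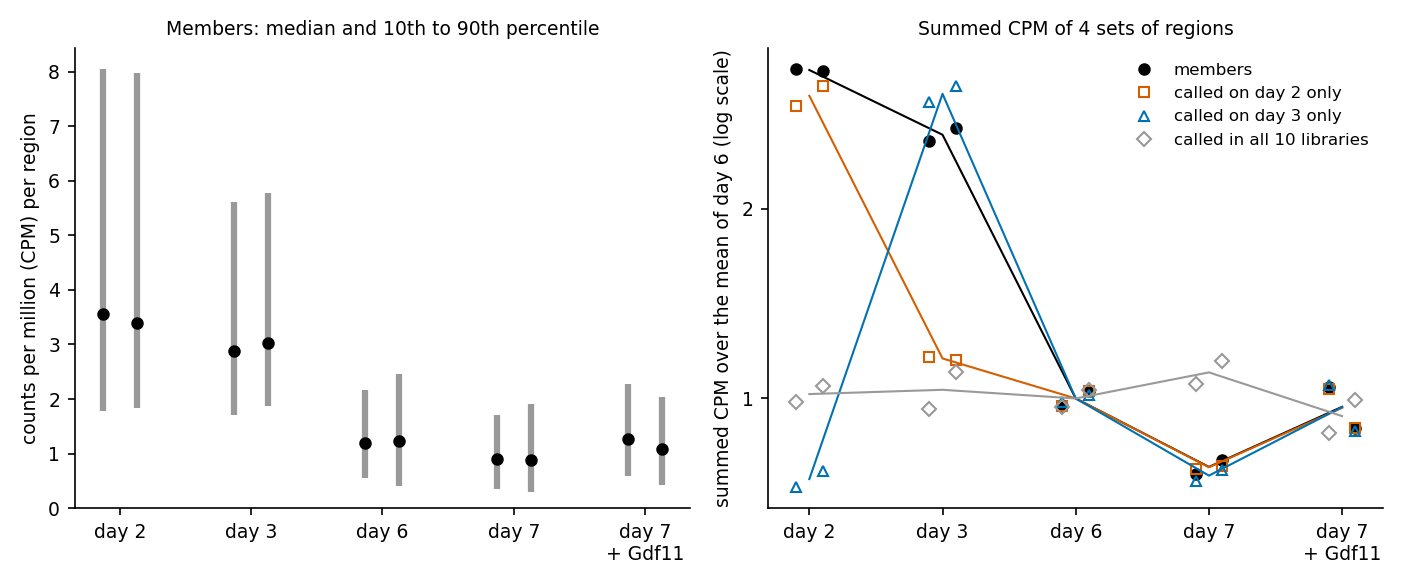
Left, CPM per member in each of the 10 libraries (point, median; bar, 10th to 90th percentile), from medians of 3.55 and 3.4 on day 2 to 0.9 and 0.884 on day 7. Right, summed CPM of 4 sets of regions over their own mean on day 6 (log axis; points, libraries; lines, group means): after day 6 the members move with the regions called on day 2 only and on day 3 only.

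Per member, the mean CPM of the 6 late libraries was 0.32 times that of the 4 early ones in the median, with a 10th percentile of 0.186 and a 90th of 0.491. In 586 members (26.9%) it was under 0.25 and in 198 (9.07%) it was at least 0.5. The latter thus kept 50% or more of their early CPM without a peak call, with no background subtracted. None had a higher mean late than early. In 1897 members (86.9%) the lowest early library stood above the highest late library, and in 285 the libraries overlapped. The rule chose members on this contrast, and the share was not counted over other regions, so it describes the selection only. The fall from D3 to D6 was near general, since 2174 members had a lower mean on day 6, while the order day 2 over day 3 over day 6 over day 7 held in 1063 (48.7%).

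**Figure D3:**
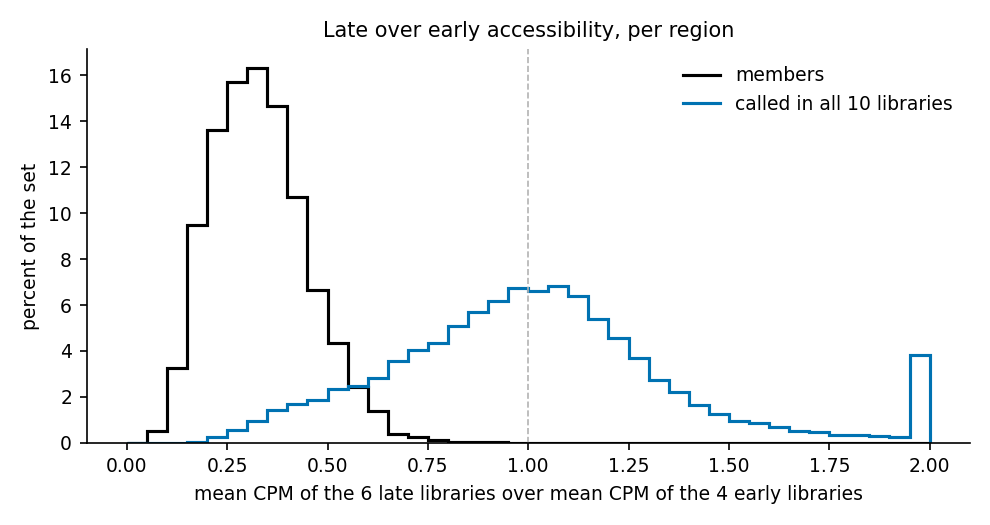
Percent of regions (vertical axis) by the ratio of mean late to mean early CPM (horizontal axis, bins of 0.05, the last bin holding all higher ratios). The members (black) centre on 0.32 and the regions called in all 10 libraries (blue) on 1.

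The 8 members with the highest early CPM, which is not scaled to length, are given with the nearest gene, which for Ncam1 lies beyond the 50 kb used for assignment. The highest lay 1901 bp from Phc1, which encodes a subunit of Polycomb repressive complex 1 (chr6:122342128-122342590). It had 45.1 and 49.2 CPM on day 2, 19.8 and 18.8 on day 3, 7.43 and 6.29 on day 6, 6.75 and 5.01 on day 7, and 5.91 and 6.46 with Gdf11. The second lay 1149 bp from Kat7, a histone acetyltransferase gene, with 36 and 32.6 CPM on day 2, 15.3 and 14.7 on day 3, and between 3.54 and 5.4 in the late libraries. Both were lower on day 3 than on day 2, by 1.28 ± 0.19 and 1.19 ± 0.21 on the log2 scale (SE, n = 2 libraries a group; edgeR adjusted p = 6.39e-07 and 1.9e-05), and both were lower again on day 6. The third, 136336 bp from the adhesion gene Ncam1, had 32.7 and 34.9 CPM on day 2, 8.58 and 9.09 on day 3, and from 1.17 to 2.69 late. Its mean early level was 11.2 times the late one, more than the 3.58 to 5.99 times of the other 7.

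The remaining 5 of the 8 were split in their course. A member in Nectin2, an adhesion gene of epithelial junctions, had 16 and 16.5 CPM on day 2, 19.8 and 23.8 on day 3, and from 3.44 to 7.34 late. A member 9590 bp from Irf1, a transcription factor of interferon responses, had 15.7 and 15.6, then 20 and 19.2, and from 1.8 to 4.31 late. Neither passed the test between days 2 and 3 (adjusted p = 0.256 and 0.378, edgeR). The member at Cldn6 had 16.1 and 19.9, then 12.1 and 18, and from 2.43 to 4.79 late. The members near Fam222a and in Ahdc1, which encodes an AT-hook DNA-binding protein, were lower on day 3, by 1.75 and 3.21 times, with adjusted p = 0.0155 and 1e-06. The first of these calls was lost without D2 replicate 2, without D3 replicate 1 and with cyclic loess scaling, where adjusted p rose to as much as 0.342.

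Whether a member was already falling on day 3, a day after CHIR99021, was asked within the early libraries. The rule did not contrast these days, although a peak on both days leaves out the largest changes. Of the 2182 members, 182 (8.34%) were lower and 34 (1.56%) higher on day 3 (edgeR quasi-likelihood test, two-sided, Benjamini-Hochberg adjusted over all 173175 regions tested). Over all regions tested 4.35% were lower and 8.82% higher, so members had the larger share of lower calls and the smaller share of higher calls. All regions include those that the rule leaves out. The 2121 called from day 3 on, for example, had 5.67 times the summed CPM on day 3 that they had on day 2. The difference in shares is thus partly set by the rule and was not tested. The median log2 change was −0.24 over members and 0.07 over all regions. All 2182 members passed the filter on low counts, which they did through days 2 and 3, where they are high. Of the 216 members called, 205 changed by at least 2 times. With DESeq2 the counts were 108 lower and 10 higher, and leaving out a library gave 76 to 129 lower and 8 to 14 higher.

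**Figure D4:**
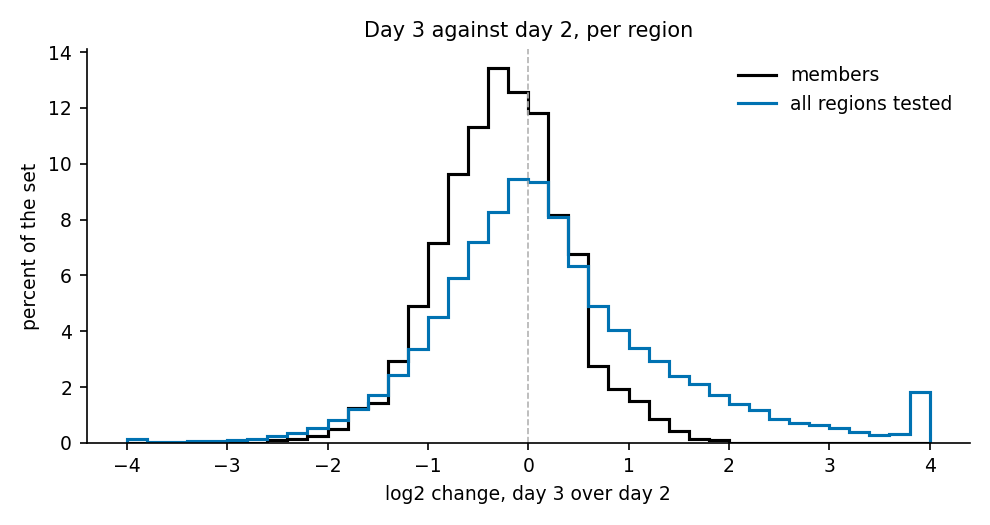
Percent of regions (vertical axis) by the fitted log2 change from day 2 to day 3 (horizontal axis, bins of 0.2, the outermost bins holding all larger changes), for members (black) and all 173175 regions tested (blue). The members centre on −0.24 and reach neither end of the axis.

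The members that were lower on day 3 included some of the steepest early losses. At the member near Ncam1 the log2 change was −1.94 ± 0.24 (SE, n = 2 libraries a group; edgeR adjusted p = 5.13e-09). In Arhgap20 the member went from 16.7 and 19.1 CPM to 3.57 and 3.46 (adjusted p = 2.66e-08, edgeR). In Nf2, which encodes merlin, a regulator of Hippo signalling, it went from 16.9 and 22.1 to 4.08 and 4.19. In both, all libraries of day 3 stood below all libraries of day 2, which the choice of named members required. Members 96196 bp from Ttc32 and 85626 bp from Creb5, a transcription factor gene, fell by 2.58 and 2.35 on the log2 scale. On day 6 these 5 members had between 1.23 and 3.28 CPM, so most of their fall was seen by day 3.

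The members that were higher on day 3 were open most on that day. At the promoter of H2-M2, a non-classical MHC class I gene, the member had 2.93 and 2.88 CPM on day 2, 10.7 and 10.1 on day 3, and from 0.684 to 1.94 late (log2 change 1.84 ± 0.37, adjusted p = 0.000189 by edgeR). A member in Rbms3, an RNA-binding protein gene, had 2.3 and 1.83 CPM and then 10.2 and 5.48; its call was lost without D3 replicate 1 (adjusted p = 0.173). A member on an unplaced scaffold had 7.32 and 9.41, then 20.5 and 17.8, and 4.5 to 9.12 late, so it overlapped with the late libraries. A member 27520 bp from Gm52720 went from 2.61 and 3.53 to 9.85 and 7.5 CPM, a call lost without D2 replicate 1 or without D3 replicate 1. The late level over that of day 3 was 0.171 in the median of the 34 higher members and 0.438 in that of the 182 lower ones. The sorting and this ratio share the day 3 values, so the order of the 2 medians follows from the sorting.

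The members whose promoter bases are printed had the following levels. At Crb3 the member had 11.2 and 12.6 CPM on day 2, 9.26 and 9.24 on day 3, and 1.76 to 6.29 in the late libraries, the highest of which was D6 replicate 2. At Eras it had 10.6 and 12.3, then 7.9 and 7.07, and 0.9 to 3.04 late. At Foxa3, a forkhead factor of the endoderm, it had 9.41 and 10.1, then 7.3 and 7.07, and 1.53 to 3.63 late. These 3 did not overlap between early and late libraries and were not called between days 2 and 3 (adjusted p = 0.475, 0.19 and 0.36, edgeR). The member at Galnt9, which encodes an enzyme of O-glycosylation, had 13.1 and 13.9, then 6.63 and 8.37, and 1.94 to 3.56 late. It was lower on day 3 by 1.81 times (adjusted p = 0.0322, edgeR), a call kept in 4 of 10 alternatives. The members at Tmem139 (11.5 and 11, then 7.9 and 7.36) and at Sox15, a Sox factor gene (5.12 and 6.93, then 4.33 and 3.46), were not called. Of all 125 members within 1 kb of a start site, 10 (8%) were lower and 1 (0.8%) higher on day 3. These shares were 8.36% and 1.6% for the 2057 others and 4.35% and 8.82% over all regions tested. The median log2 change was −0.41 near start sites and −0.23 for the others, a difference that was not tested. The others include members on chromosomes outside the promoter table.

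Members were counted by lists of genes that fit this tissue and treatment. Over all genes, 0.825% of the assigned regions were members, and this is the figure each list is read against. The naive pluripotency list, which marks the ground state, had 2 members among 266 regions (0.752%), both at Prdm14, a repressor that guards that state. The primed epiblast list had 5 of 329 (1.52%), at Cdh1, Fgf5 and Etv4. The Nodal and TGF-beta list had 5 of 339 (1.47%), at Foxh1, Skil, Ltbp1 and Pcsk6. The Fgf list had 4 of 323 (1.24%). Each list holds at most 5 members, the shares were not tested, and the lists share genes.

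Cdh1, which encodes E-cadherin, the adhesion molecule of the epiblast and other epithelia, had 3 members among its 22 regions, all inside the gene. The one with the highest level (chr8:106610973-106611343) had 12.6 and 13.2 CPM on day 2, 4.16 and 6.35 on day 3, 2.32 and 3.69 on day 6, 1.08 and 0.884 on day 7, and 2.03 and 2.15 with Gdf11. It was lower on day 3 by 2.51 times (adjusted p = 0.00147, edgeR), a call lost without D3 replicate 1 (adjusted p = 0.0891). Another (chr8:106603929-106604214) was lower by 2.53 times (adjusted p = 0.00298), and the last (chr8:106617265-106617641) had 9.09 and 6.8 CPM on day 2 and 5.44 and 5.34 on day 3 (adjusted p = 0.325). These other 2 members of Cdh1 were named after their values were seen. The other regions of Cdh1 also fell in summed CPM, from 99.4 and 113 on day 2 to 40.5 and 32.7 on day 7, and 3 of the 22 were called in all 10 libraries.

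Fgf5, the ligand that marks the primed epiblast, had 1 member 16067 bp away (chr5:98293100-98293745). It had 14.1 and 18.3 CPM on day 2, 5.78 and 5.48 on day 3, 2.88 and 3.97 on day 6, 2.07 and 1.18 on day 7, and 2.95 and 2.58 with Gdf11. It was lower on day 3 by 2.86 times (adjusted p = 7.62e-05, edgeR). The receptor Fgfr1 showed the reverse order of the early days at a member 5057 bp away, with 3.14 and 2.61 CPM on day 2, 8.75 and 9.81 on day 3 and 0.884 to 2.74 late (3.19 times higher, adjusted p = 0.000746). Here the highest late library reached the day 2 libraries, so the member stood apart on day 3 alone. The other regions of Fgfr1 did not rise with it, with summed CPM of 140 and 143 on day 2 and 110 and 120 on day 3. The member 2890 bp from Fgf8, the ligand of the caudal epiblast, had 2.4 and 3.14, then 7.22 and 5.77, and 0.538 to 2.6 late. It was higher on day 3 by 2.37 times (adjusted p = 0.0341), a call kept in 4 of 10 alternative analyses, with adjusted p from 0.0112 to 0.282. Etv4, an ETS factor induced by Fgf signalling, had a member 2208 bp away with 4.29 and 4.71, then 5.61 and 6.78 CPM, which was not called.

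Of the Nodal pathway, Foxh1, the partner of Smad proteins at Nodal target genes, had 2 members among its 3 regions, side by side within the gene. The first had 7.21 and 8.37 CPM on day 2, 3.91 and 5.48 on day 3, and 0.821 to 1.53 in the late libraries. The second had 6.79 and 6.54, then 4.16 and 5.05, and 0.36 to 2.05 late. The third region of the gene was called in all 10 libraries, so the members at Foxh1 were not accompanied by the closure of every region there. Skil, a Smad corepressor, had a member with 7.11 and 6.01, then 9.17 and 5.63 CPM, and 0.54 to 2.03 late. Ltbp1, which encodes a protein that tethers latent TGF-beta, had a member that was higher on day 3 by 2.4 times (3.87 and 2.88, then 6.96 and 9.53 CPM; adjusted p = 0.0175, edgeR), a call kept in 5 of 10 alternatives. Early and late libraries did not overlap at these members.

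**Figure D5:**
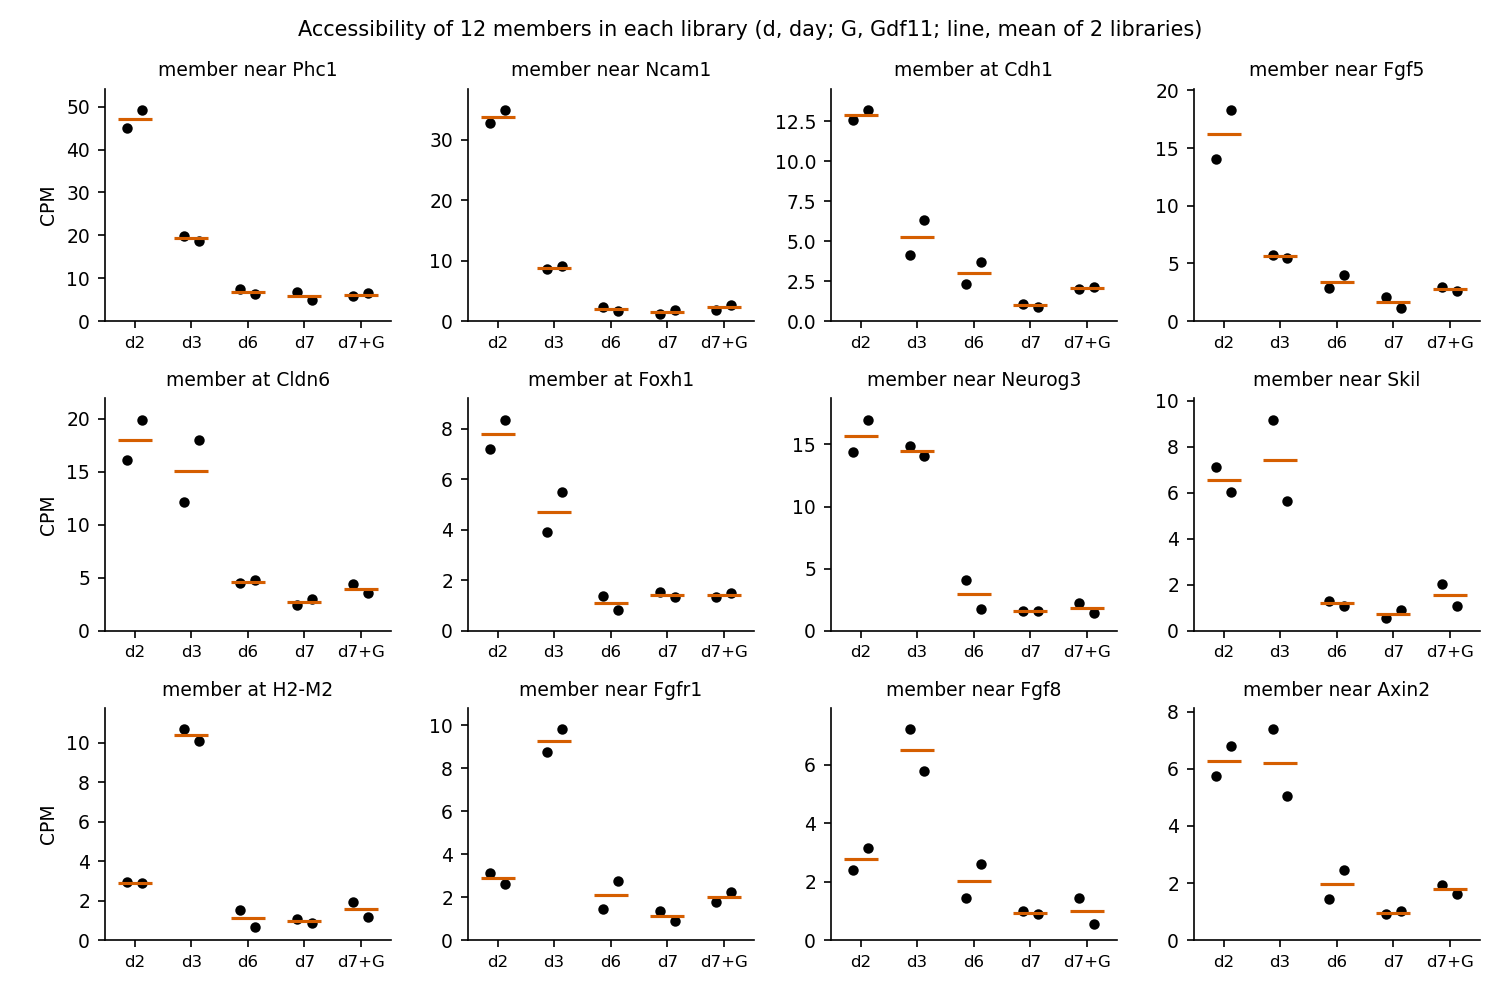
CPM (vertical axis, from 0, a scale for each panel) of 12 members in each library, with points for libraries and lines for means of 2 libraries. The members near Phc1, Ncam1, Cdh1 and Fgf5 are highest on day 2, those near H2-M2, Fgfr1 and Fgf8 on day 3, and those near Cldn6, Foxh1, Neurog3, Skil and Axin2 were not called between these days.

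The lists of the fates that follow and of their signals held 0 to 2 members each, which is too few to set against the 0.825% over all genes. The Wnt target list had 1 member of 294 regions (0.34%), 7788 bp from Axin2, a feedback inhibitor of the pathway. It had 5.75 and 6.8 CPM on day 2, 7.39 and 5.05 on day 3, and 0.9 to 2.46 late. The other regions of Axin2 rose in summed CPM, from 89.3 and 95.8 on day 2 to 184 and 219 on day 3, with 180 and 209 on day 7. The caudal epiblast list had 1 of 232 (0.431%), that of Fgf8, and the presomitic and paraxial mesoderm list none of 180. The neural list had 2 of 340 (0.588%). Of these, the one 979 bp from Neurog3, a proneural factor, had 14.4 and 17 CPM, then 14.9 and 14.1, and 1.4 to 4.07 late. The one in Pax7 had 3.24 and 1.83, then 3.57 and 2.16, and overlapped with the late libraries. The other regions of Neurog3 rose in summed CPM, from 14.4 and 13.1 on day 2 to 31.4 and 43 on day 7. Those of Pax7 rose from 87.6 and 111 to 198 and 241. The forebrain list had 2 of 258 (0.775%). The one 2387 bp from Lhx2, a LIM homeobox factor, had 5.02 and 3.4 CPM, then 2.72 and 4.33, and 0.81 to 2.36 late. The other regions of Lhx2 went from 91.5 and 105 on day 2 to 78.5 and 71.6 on day 7.

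The remaining lists are given for the cells a culture could also hold. The endoderm list had 2 members of 189 regions, the only region of Cldn6 and 1 of 14 at Dab2. The lists of heart and blood, neural crest and feeder fibroblast genes had 1 each, at Hand2, Tfap2b and Prrx1. The trophoblast and housekeeping lists had none of 124 and of 105. The member 41295 bp from Prrx1, a mesenchymal factor, was the sole one by the 14 fibroblast genes, with 2.3 and 2.35 CPM on day 2, 3.48 and 2.02 on day 3, and 0 to 0.959 late. The other regions of Prrx1 summed to 39.7 and 37.5 CPM on day 2 and to 53 and 58.5 on day 7. All 197 regions at the 14 fibroblast genes summed to 411 and 456 CPM on day 2 and 455 and 457 on day 3. They summed to 479 and 485 on day 6, 521 and 550 on day 7, and 503 and 553 with Gdf11. The early sums were not above the late ones, and whether feeder cells added to the signal of members was not tested.

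The list of DNA methylation and chromatin genes had 3 members of 261 regions (1.15%). Dnmt3l, the cofactor of the de novo methyltransferases, had one at a start site, with 4.18 and 3.14 CPM on day 2, 2.12 and 2.6 on day 3, and 0.18 to 1.77 late. Tet1, which oxidises methylated cytosine, had one inside the gene with 5.23 and 3.92, then 3.99 and 3.46, and 0.861 to 1.94 late. Jarid2, a subunit of Polycomb repressive complex 2, had one 18569 bp away. None of the 3 was called between days 2 and 3.

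Few genes had several members. Of the 1428 genes, 1303 had 1 member, 110 had 2, 10 had 3 and 5 had 4. Those with 4 were Ryr1, a calcium release channel gene (4 of 32 regions), Csmd3 (4 of 59), Zfp423 (4 of 90), Lrp1b (4 of 96) and Pde4d, a cyclic AMP phosphodiesterase gene (4 of 188). Those with 3 were Cdh1, Igsf21, Zfp536, Nfix, Pcdh15, Ablim1, Blcap, Tenm3, Crybg1 and Slc4a4. Summed over its 4 members, Ryr1 had 35.8 and 43.1 CPM on day 2, 20 and 16.9 on day 3, and 5.04 to 8.02 late, and its other regions fell as well, from 106 and 114 to 47.7 and 47.9 on day 7. At Zfp423 the members went from 17.4 and 17.5 to 5.04 and 5.01 on day 7, while the other regions had 322 and 357 on day 2 and 369 and 388 on day 7. At Ablim1 the members went from 12.5 and 11.6 to 2.52 and 3.98, and the other regions from 71.7 and 74.7 to 82.4 and 84.8. Of genes with a member, 80.8% also had a region called in all 10 libraries, and 17.9% also had a region called in all 6 late and no early library. Over all 16240 genes with a region called in all 4 early libraries, these shares were 88.9% and 8.85%. Such a gene can enter by a region called in all 10 libraries, as 64.1% of these regions are, which a member never is. The number of regions per gene was not matched either, so the shares are not like for like. At 255 genes with a member another region thus took the opposite course, and the difference between the shares was not tested.

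Between day 6 and day 7, few members passed the test. Of the 2182, 7 (0.321%) were lower and 0 higher (edgeR quasi-likelihood test, adjusted over all regions), against 0.207% lower and 0.974% higher over all regions tested, so the share of lower calls is near the background. DESeq2 also called 0 higher, and 1 lower. At an unadjusted p under 0.05, edgeR had 175 members lower and 5 higher, and DESeq2 had 113 and 3. These counts support no late change, since members entered the test through days 2 and 3, where they are high, and 1316 of them pass the filter on the libraries of days 6 and 7 alone. Their median log2 change was −0.36, against −0.02 over all. Summed over members, CPM on day 7 was 0.779 times that of day 6, from 2897 ± 106 to 2256 ± 87 (SD, n = 2). The same ratio was 0.778 for regions called on day 2 only and 0.754 for regions called on day 3 only, and 1.1 for regions called in all 10 libraries. Other regions without a late peak thus had ratios close to that of the members, and nothing in these sums sets the members apart. For single sums, 2 libraries against 2 allow no exact permutation p under 0.333.

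For Gdf11 against day 7 without it, the share of members called was again small. Of the members, 12 (0.55%) were higher and 0 lower, against 1.09% higher and 2.65% lower over all regions, and the median log2 change was 0.38 against 0.03. Both late comparisons use the same day 7 libraries, so their opposite signs are not independent. Summed CPM with Gdf11 was 2810 ± 300 (SD, n = 2), 1.25 times that of day 7 and 0.97 times that of day 6. The ratio to day 7 was 1.24 for regions called on day 2 only and 1.28 for those called on day 3 only. The 2 Gdf11 libraries also differed from each other in members' share of counts (0.328% and 0.26%), and without the first 2 members were higher. DESeq2 called 0 members in either direction after adjustment. At an unadjusted p under 0.05, edgeR had 172 members higher and 14 lower with Gdf11, and DESeq2 had 99 and 9. Here too the members entered through days 2 and 3, and 1403 pass the filter on the libraries compared.

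The members called in the late comparisons had very few counts. They entered these tests through days 2 and 3, where they are high. In the fit of only the 4 libraries compared, some of the calls below could not be tested, as the member did not pass the filter. These are the day 7 against day 6 call in Lrrc6, both calls near Olfr401 and the call near Gm11232. A member in Lrrc6, a gene for assembly of the dynein arms of cilia, had 0.719 and 1.78 CPM on day 6, 0 counts in both libraries of day 7, and 1.69 and 1.18 CPM with Gdf11. With 3 counts over the group as the floor, it was at least 7.45-fold lower on day 7 than on day 6, and at least 8.57-fold higher with Gdf11 than without (adjusted p = 0.00554 and 0.000649, edgeR). The first call was lost without D6 replicate 2 and without either library of day 7 (adjusted p up to 0.119). A member 13542 bp from the olfactory receptor gene Olfr401 had 0.959 and 2.05 CPM, then 0 counts in both, then 1.18 and 0.431. These were at least 8.98-fold lower and at least 4.81-fold higher (adjusted p = 0.00255 and 0.01, edgeR). The first of these calls was lost without D7 replicate 1 (adjusted p = 0.0705). The second was kept in 5 of 9 alternatives and lost without either library of day 7, without Gdf11 replicate 1 and with cyclic loess (adjusted p up to 0.213). A member in Fam229a had 2.72 and 3.15 CPM on day 6 and 0.81 and 0.736 on day 7, and its call was lost without any 1 of the 4 libraries. A member 121083 bp from Gm11232 had 2 counts in all on day 7, with 0.18 and 0 CPM, and 2.19 and 0.538 CPM with Gdf11, a call lost without D7 replicate 2, without Gdf11 replicate 1 and with DESeq2 (adjusted p up to 0.543).

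The authors' deposited tables of motif enrichment are marked as down or up between consecutive stages, without stating which regions were used or whether they include members. In the authors' deposited table marked down from day 2 to day 3, the composite OCT4-SOX2-TCF-NANOG motif (ATTTGCATAACAATG) came first, in 21.6% of target and 2.68% of background sequences. In the authors' deposited table marked down from day 3 to day 6 it was again first, in 16.82% and 2.59%. In the promoter windows with a member, a SOX word ACAATGG stood in 2 of 69 (2.9%), against 2.36% of all protein-coding promoters. The genome sequence of the members outside these windows was not used here, so the motif content of most members is not described.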

How the data were processed

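ATAC-seq was deposited for 10 libraries in 5 groups of 2. The authors deposited raw counts per merged region and a peak list per library. The deposited lists give each peak a score (10 times the −log10 q, cut to a whole number), a fold enrichment ratio over the background of the caller, and −log10 p and q values. The authors' deposited motif tables give counts and percents of target and background sequences and a log enrichment score. HISAT2 2.1.0, SAMtools, MACS2 2.1.1.20160309, bedtools, HOMER 4.10 and build mm10 are named in the submitters' processing notes, with no role or order. The counter is not given in the sources used here.

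The count tables hold no coordinates. The 10 peak lists were merged in character order of chromosomes, which gave 246799 regions, the number of rows counted. Each library had counts above 0 wherever it had a peak. Positions rest on this match. Counts on chrM were 9.25% to 13.4% of a library. The members and the 16 gene lists (239 genes) were chosen with earlier results of these data known.

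Counts were fitted over all regions in edgeR 4.0.16 (R 4.3.3) with filterByExpr, TMM factors and a quasi-likelihood F test, 1 fit of 10 libraries by group. The filter kept 173175 regions and dropped 73624. Common dispersion came to 0.0402, with 52.3 median prior degrees of freedom. Calls are at a Benjamini-Hochberg adjusted p under 0.05. CPM use TMM factors and are not per length, so they are compared between libraries and not between regions of different width. Depth sets the precision: at 3 counts over both day 7 libraries the floor was 0.168 CPM, and floors cover counting error only. The tests were tried on simulated counts first.

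Regions were assigned to the nearest span of 21887 protein-coding genes (RefSeq, GRCm38.p6) within 50 kb. Start sites and promoter sequences came from the RefSeq promoter table of the same build. A motif search over the members themselves was planned for the case that a genome was at hand, and the promoter windows were searched instead (17 words, both strands, 250 bases before each start). Named regions were the 8 members of highest early level, the 5 per direction of smallest p without overlap between libraries on day 3 against day 2, up to 3 per direction in each late comparison, up to 3 genes per list, the 12 genes with most members and regions at the edge of the rule. Genes tied at the 12th place by member number are named too. Alternatives were library size scaling, DESeq2 1.42.0, no filter, cyclic loess (limma 3.58.1), a replicate block, a fit of the 4 libraries compared, leaving out each library, stricter peaks, a 50% overlap, Gdf11 ignored in the rule, and windows of 10 and 200 kb. One alternative, members whose early peaks all have a −log10 q of at least 5, was chosen after seeing the data. Some values are not reported here.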

Additional observations from a re-analysis of the deposited data

How the results depend on the processing

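For day 3 against day 2, members were higher and lower in 28 and 179 cases with library size scaling, 31 and 180 without the filter, 58 and 208 in a fit of the 4 libraries compared, 10 and 108 with DESeq2, and 10 and 135 with cyclic loess. Leaving out 1 library gave 8 to 14 higher and 76 to 129 lower, the fewest lower without D3 replicate 1. Among the 960 members with a −log10 q of at least 5 in every early peak, 2.4% were higher and 8.54% lower, against 1.56% and 8.34% of all members. For day 7 against day 6, 1 member was lower with DESeq2 and in the fit of 4 libraries (1316 members tested), and 1 to 6 were lower and 0 to 1 higher without 1 library. For day 7 with Gdf11 against day 7, 0 were higher with DESeq2, 6 with cyclic loess and 3 in the fit of 4 libraries (1403 tested), 2 were lower without the filter, and 2 to 17 were higher and 0 to 1 lower without 1 library, the fewest higher without Gdf11 replicate 1. In such fits the lone library is assumed to vary like the others. The cause of these shifts was not tested.

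Deviations of same-numbered libraries were little related by region, with correlations all under 0.1. Replicate 1 still had more counts than replicate 2 in every group, and a smaller share on chrM. On day 6, for example, it had 12335735 counts against 7403576, with 9.7% and 12.3% on chrM. Whether same-numbered libraries share a batch was not tested. With the replicate block, members were higher and lower in 36 and 186 cases on day 3, in 0 and 9 on day 7, and in 14 and 2 with Gdf11. The median log2 change of the members kept its sign in every alternative run. Library size scaling moved the median of all regions from 0.03 to 0.19 with Gdf11 against day 7, and that of the members from 0.38 to 0.53.

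The rule gave 2182 regions from the peaks as deposited, 1921 with peaks of −log10 q of at least 5 (960 shared), 1497 at 10 (101 shared), 2384 with a 50% overlap (1151 shared), 2973 with Gdf11 ignored, and 2368 to 4620 without 1 library, the most without D3 replicate 2. A gene lay within 10 kb of 55% of members and within 200 kb of 86.5%.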
